A study of Mus musculus with 20 samples.

Results

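A set of 33 genes of DNA replication was followed through the cell classes of growing mouse skin, in control mice and in mice that lack Fgf5. The set was a named list of genes: Mcm2 to Mcm7, Cdc6, Cdt1, Gmnn, Cdc45, Gins2, Pcna, Pclaf, Rfc2, Rpa2, Prim1, Pola1, Pold3, Pole, Fen1, Lig1, Rrm1, Rrm2, Tyms, Dut, Ung, Tipin, Clspn, Exo1, Blm, Slbp, Chaf1b and Uhrf1. All 33 were found among the 31055 features of both deposited matrices. Mouse skin was dissociated and single-cell RNA was captured with 10x Genomics 3′ v3 chemistry, in which each transcript molecule is tagged near its 3′ end and counted once as a UMI (unique molecular identifier).

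All mice carried Nfatc1-CreER, R26R and mTmG, and all skin was dorsal and in anagen, when follicles make hair. Nfatc1-CreER is a tamoxifen-activated recombinase driven by Nfatc1, which marks stem cells of the hair follicle, and the mTmG reporter records recombination. The control group had these transgenes alone and received tamoxifen for 3 days from postnatal day 21 or 22. The mutant group was also Fgf5-/- and received tamoxifen for 3 days from postnatal day 23 or 24. Fgf5 encodes a secreted factor that is known to promote the end of anagen. The labels list 4 control and 16 mutant samples but do not say which are separate animals, and each group was deposited as 1 pooled matrix. Each group therefore counts as 1 sample, no difference was tested, and genotype, the later start of tamoxifen and the library cannot be told apart. The intervals below are 95% and cover counting error only.

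DNA is copied once per cell cycle. Before S phase the MCM helicase is loaded at origins by Cdc6 and Cdt1. It is then switched on by Cdc45 and the GINS complex, and DNA polymerases copy both strands behind it, held on DNA by the PCNA ring. Nucleotide enzymes such as ribonucleotide reductase and thymidylate synthase supply the building blocks, and histones are made at the same time to package the new DNA. In anagen skin the hair matrix and the outer root sheath of the follicle, and the basal layer of the epidermis, are known sites of division. Many of these genes are known targets of E2F factors, which drive entry into S phase, whereas many genes of mitosis carry another promoter element, the CHR.

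Promoter sequences of the members were searched for both elements. RefSeq promoters of GRCm38.p6, 250 bases before and 50 bases after each start, were on hand for 26 of the 33 genes. An E2F-type motif (TTTCCCGC, TTTCGCGC, TTTGCCGC or TTTGGCGC, on either strand) was in a promoter of 12 of these 26 genes, or 46.2%, against 2.61% of 27025 genes in the whole table. A CCAAT box, on either strand, was in 17 of 26 (65.4%) against 41.1% of all genes. The CHR letters TTTGAA, on either strand, were in 3 of 26 (11.5%) against 20.2% of all genes and 72.7% of 22 mitosis genes. The 200 bases before the start are printed here for 4 members whose window overlaps no annotated transcript: Mcm5 and Mcm6, which hold E2F-type matches, and Rrm1 and Tyms, which passed the size rule below and hold none. Capitals mark E2F-type and CCAAT matches, and CCAAT on the opposite strand reads ATTGG.
Mcm5, chr8:75109309-75109508, plus strand: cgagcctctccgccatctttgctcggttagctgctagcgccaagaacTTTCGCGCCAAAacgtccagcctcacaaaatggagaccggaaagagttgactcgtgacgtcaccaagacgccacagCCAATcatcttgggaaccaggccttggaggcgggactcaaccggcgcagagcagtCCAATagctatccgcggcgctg
Mcm6, chr1:128359706-128359905, minus strand: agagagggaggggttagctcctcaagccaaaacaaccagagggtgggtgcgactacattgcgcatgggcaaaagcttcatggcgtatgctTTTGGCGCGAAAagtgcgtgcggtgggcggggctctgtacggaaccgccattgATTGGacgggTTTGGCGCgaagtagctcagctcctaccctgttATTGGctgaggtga
Rrm1, chr7:102441495-102441694, plus strand: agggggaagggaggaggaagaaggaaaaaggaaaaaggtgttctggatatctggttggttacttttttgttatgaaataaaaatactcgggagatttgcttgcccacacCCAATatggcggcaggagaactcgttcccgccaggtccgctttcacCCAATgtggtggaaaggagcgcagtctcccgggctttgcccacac
Tyms, chr5:30073626-30073825, minus strand: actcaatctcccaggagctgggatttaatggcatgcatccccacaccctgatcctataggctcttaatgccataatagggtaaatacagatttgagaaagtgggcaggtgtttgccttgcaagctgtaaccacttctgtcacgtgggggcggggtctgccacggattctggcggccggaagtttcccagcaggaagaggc
In Mcm5, 2 overlapping E2F-type matches on opposite strands begin 153 and 149 bases before the start. Mcm6 has the same arrangement at 110 and 106 bases, and a further match at 47. Neither Rrm1 nor Tyms held an E2F-type match, and Tyms had no CCAAT box either, which says nothing of the factors that bind there.

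After filtering, 13790 control and 11002 mutant cells were kept, with medians of 5592 and 5985 UMIs per cell. Mitochondrial transcripts made up a median of 3.21% of UMIs in control cells and 4.92% in mutant cells, and the mutant median was the higher in each of the 11 classes compared. The part of this gap in the results was not tested. The cell mixture went beyond the labelled epidermis: fibroblast, dermal papilla, melanocyte and T cell markers each defined a class. The matrices shared 59 barcodes, 36 of them among kept cells. Because deeper cells show more genes, each cell was thinned at random to 1500 UMIs, which left out 1022 control and 712 mutant cells with fewer. Levels are given in CPM, the UMIs of a gene or list in every 1000000 thinned UMIs. The share of cells that held 3 or more UMIs of the 33 genes is given beside them.

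Over all cells the replication genes stood lower in the mutant library. Control cells held 20207 UMIs of the 33 genes, 1055 CPM (1041 to 1070), and mutant cells 11709 UMIs, 759 CPM (745 to 772). The log2 ratio of mutant to control was -0.48 (-0.51 to -0.44), beside a median of -0.04 over the 3164 genes at 50 CPM or more. Of the control cells 19.0% held 3 or more UMIs of the set, against 13.7% of the mutant cells, or 58.5% and 47.3% before thinning. Unthinned sums, in which deep cells weigh more, gave a log2 ratio of -0.28. With the class shares of the control library given to both, the levels were 1059 and 727 CPM, a log2 ratio of -0.54.

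The size of the difference depended on the cell class (plot of levels and shares by class). In interfollicular basal keratinocyte-like cells, the dividing layer of the epidermis, the summed level fell from 785 to 368 CPM (-1.09, -1.23 to -0.96). Outer root sheath-like cells, which wrap the growing hair root, stood at 1363 and 715 CPM (-0.93, -1.04 to -0.82). Upper follicle keratinocyte-like cells had 720.2 and 410.3 CPM (-0.81, -1.06 to -0.57). Melanocyte-like pigment cells had 728 and 473 CPM (-0.62, -0.75 to -0.49).

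**Figure D1:**
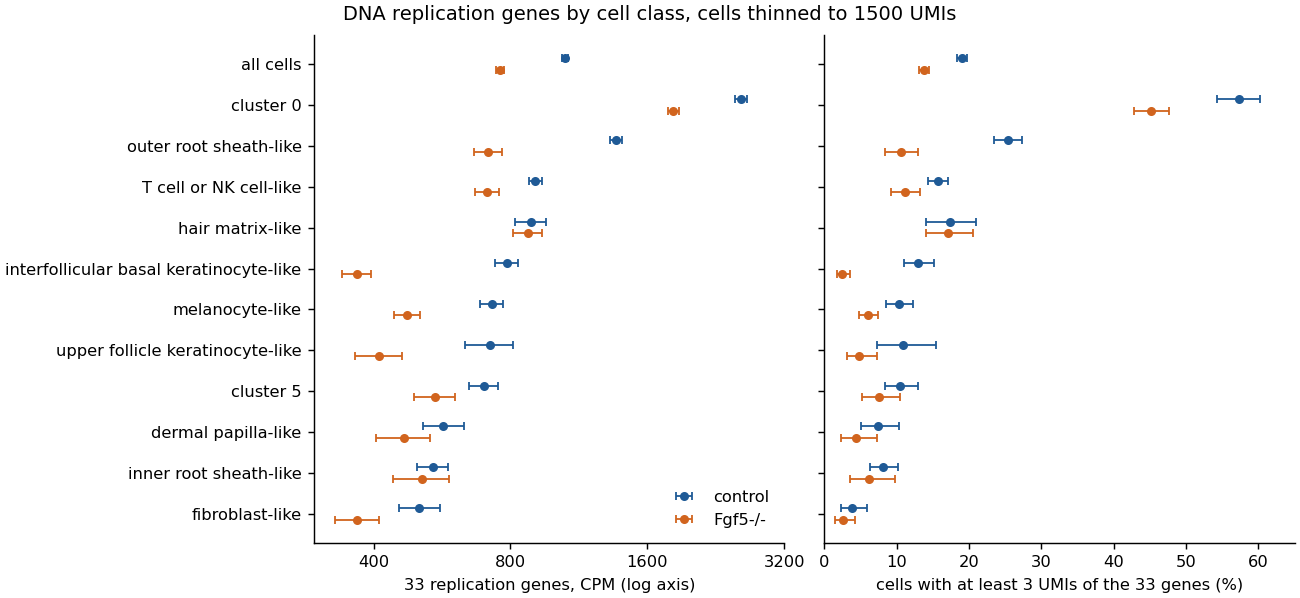
Summed level of the 33 replication genes (left, CPM, log axis) and share of cells with at least 3 of their UMIs (right, %) in 11 cell classes and all cells, for 1 control and 1 Fgf5-/- library thinned to 1500 UMIs per cell. Bars are 95% counting intervals. The mutant point lies left of the control point in each class. The level intervals overlap in hair matrix-like, inner root sheath-like and dermal papilla-like cells.

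Of the 11 classes compared, cluster 0 had the highest levels. It was led by Hist1h1b, Pclaf, Cldn10, Stmn1, Mki67 and Top2a, most of them genes of dividing cells, and stayed unnamed because no marker set stood out. Its best set was that of the hair matrix, the dividing bulb that feeds the hair shaft. Cluster 0 had 2575 CPM in 1089 control cells and 1825 CPM in 1725 mutant cells (-0.50, -0.56 to -0.44), and it held 20.8% of all control and 40.3% of all mutant UMIs of the set. A finer clustering, at resolution 2, left a difference of -0.11 in the matching cluster, so the size in cluster 0 depends on where its border is drawn. Cluster 19, led by Slc39a10, Flrt2 and Fgf5, had 3168 CPM in 299 control cells and 2167 CPM in 128 mutant cells (-0.55, -0.71 to -0.39), too few mutant cells for the comparisons below.

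Hair matrix-like cells, marked by Krt35, Krt36, Msx1, Msx2 and Lef1, had 888 and 872 CPM (-0.03, -0.18 to 0.13). Inner root sheath-like cells, the layers that mould the hair shaft, had 540.0 and 510.3 CPM (-0.08, -0.32 to 0.15). Both intervals include 0. Krt35 and Krt36 belong to the marker set of hair cortex and cuticle. Cluster 0, whose best set was also that of the hair matrix, stood at -0.50. The hair matrix-like value therefore does not stand for all matrix cells. The remaining 4 classes lay between: -0.45 in fibroblast-like cells (505 and 368 CPM), -0.36 in cluster 5 (698 and 545 CPM), -0.35 for T cell or NK cell-like cells (906 and 711 CPM) and -0.29 in dermal papilla-like cells (569.7 and 466 CPM). In all, the interval lay below 0 in 9 of 11 classes and above 0 in none. The hair matrix-like and inner root sheath-like values depended on the processing. Hair matrix-like cells gave -0.30 with doublets kept, -0.19 with the cell cycle lists kept in the clustering, -0.20 in 1 of 4 further thinnings and 0.30 with a separate clustering of each library. Inner root sheath-like cells gave 1.02 with separate clustering, 0.58 at resolution 2, 0.20 with stricter filters on cells and -0.33 without Pcna, Dut and Slbp.

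The interval of the ratio of shares lay below 0 in 6 of 11 classes and included 0 in the other 5: cluster 5, dermal papilla-like, fibroblast-like, hair matrix-like and inner root sheath-like cells. In interfollicular basal keratinocyte-like cells, 13.0% of 1010 control cells (10.96 to 15.2) and 2.47% of 1294 mutant cells (1.70 to 3.47) held at least 3 UMIs. In outer root sheath-like cells the shares were 25.4% (23.5 to 27.4) and 10.5% (8.403 to 13.0), and in cluster 0 57.3% (54.3 to 60.3) and 45.2% (42.8 to 47.6). Hair matrix-like cells had 17.3% and 17.1%. For comparison, hair cortex and cuticle-like cells, which are past division, had 0.855% of 117 control and 1.45% of 69 mutant cells at this count. Interfollicular suprabasal keratinocyte-like cells, which have also left the cycle, had 1.56% (0.323 to 4.50) and 1.39% (0.560 to 2.84), all at the same 1500 UMIs. Before thinning, control and mutant medians were 18005 and 17293 UMIs in cortex and cuticle-like and 7377 and 7785 in suprabasal cells. The basal class had 5363 and 4856. Free RNA was not measured, and these deeper classes do not gauge it in shallower ones. The mutant share of the basal class overlapped the mutant suprabasal share at this cut. At 2 UMIs it was 11.1% (9.39 to 12.9), against 4.96% (3.24 to 7.24) of mutant suprabasal and 7.25% (2.39 to 16.1) of mutant cortex and cuticle-like cells. The level of 368 CPM in mutant basal cells (341 to 396) lay above the 208 CPM of mutant suprabasal cells (176 to 243).

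Some classes were made of different clusters in the 2 libraries. Interfollicular basal keratinocyte-like cells came mostly from cluster 7 in the control library and from cluster 3 in the mutant library. Cluster 3 was led by Tslp, Epgn, Ccl20, Igfbp3, Ptgs2 and Serpinb2, among them cytokines and other genes of stressed or inflamed epidermis, and cluster 7 by Ndufa4l2, Clca3a2, Fcgbp and Ly6a. Within cluster 7 the set stood at 792 CPM in 993 control cells and 531 CPM (390.2 to 706) in 59 mutant cells, and within cluster 3 at 392 CPM (188 to 721) in 17 control cells and 360.1 CPM in 1235 mutant cells. Median mitochondrial shares were 2.58% and 4.96% in this class. The part of this cell state in the lower level was not tested. Melanocyte-like cells came mostly from cluster 6 in the control library and from cluster 4 in the mutant library. Within cluster 6 the set stood at 724 CPM in 1052 control cells and 345 CPM (193 to 569) in 29 mutant cells. Within cluster 4 it stood at 857 CPM (600 to 1187) in 28 control cells and 476 CPM in 1237 mutant cells. With clusters 4 and 6 weighted equally the melanocyte-like ratio was -0.95. T cell or NK cell-like cells came from clusters 2, 13 and 15 in the control library and mostly from cluster 9 in the mutant library. The control and mutant levels were 688 and 699 CPM in cluster 9, with 31 control cells, and 1043 and 1030 CPM in cluster 13, with 11 mutant cells. They were 873 and 719 CPM in cluster 2, with 51 mutant cells, and 850 and 749 CPM in cluster 15. With clusters 2, 9 and 15 weighted equally, and cluster 13 left out for its few mutant cells, the ratio of this class was -0.15.

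Scaling matters where many genes shift together. TMM factors, which assume that most genes are level, moved every ratio up by 0.33 in interfollicular basal keratinocyte-like cells, by 0.20 in upper follicle keratinocyte-like cells, by 0.15 in fibroblast-like cells and by 0.11 in melanocyte-like cells. DESeq2 size factors moved them by 0.36, 0.18, 0.22 and 0.15, and by 0.11 each in the hair matrix-like class and the T cell or NK cell-like class. The shift over all cells was 0.09 and 0.10. Hair matrix-like cells, whose interval included 0, went to 0.02 and 0.08 under these scalings, and the other 10 class levels kept their sign. The order of the classes changed: interfollicular basal keratinocyte-like cells went to -0.77 and -0.74, and outer root sheath-like cells to -0.86 and -0.85.

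Taken by role, the genes of nucleotide supply differed most among the larger groups (plot of ratios by role). Rrm1 and Rrm2, the subunits of ribonucleotide reductase, Tyms, the thymidylate synthase, Dut, which removes dUTP, and Ung, which cuts uracil out of DNA, together held 295 CPM in control and 166 CPM in mutant cells (-0.83, -0.90 to -0.76). The 9 licensing genes had 205 and 149 CPM (-0.46, -0.53 to -0.38). The polymerase, clamp, clamp loader and single-strand binding genes had 253 and 224 CPM (-0.18, -0.24 to -0.12), a group that includes Pcna. In cluster 0 the nucleotide group had 736 and 390.0 CPM (-0.92, -1.04 to -0.79), against 541 and 424 CPM for licensing (-0.35, -0.48 to -0.22). In outer root sheath-like cells the groups were alike, -0.93 for nucleotide supply, -0.97 for licensing and -0.93 for the polymerase group.

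**Figure D2:**
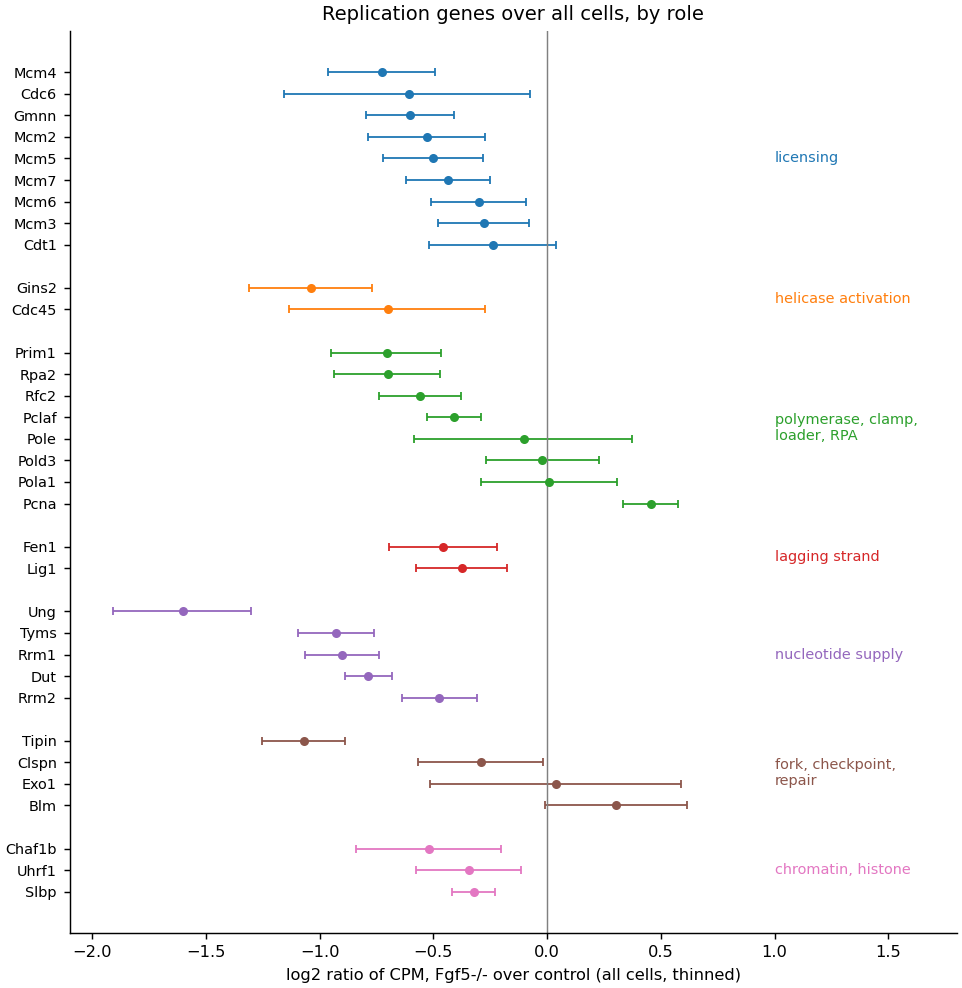
Log2 ratio of the level in Fgf5-/- over control cells for each of the 33 genes over all cells, by role, with 95% counting intervals. Ung, Tipin and Gins2 lie farthest to the left, and Pcna is the gene whose interval lies above 0.

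Among the licensing genes, the 6 MCM helicase subunits had ratios over all cells between -0.73 (Mcm4, 24.0 and 14.5 CPM) and -0.28 (Mcm3, 26.7 and 22.0 CPM). Gmnn, the inhibitor that keeps Cdt1 from licensing an origin again, had 33.6 and 22.2 CPM (-0.60, -0.80 to -0.41). Cdt1 itself had 13.99 and 11.9 CPM (-0.24, -0.52 to 0.04), and Cdc6 4.54 and 2.98 CPM (-0.61, -1.16 to -0.08). Of the 11 classes, cluster 0 had the highest level of all 6 MCM genes, where Mcm7 had 89.99 and 66.1 CPM and Mcm3 75.9 and 75.4 CPM. In unthinned sums Mcm4 was below its control level in 10 of 11 classes, Mcm2 and Mcm3 in 9, Mcm5 and Mcm7 in 8, and Mcm6 in 7. With TMM or DESeq2 factors Mcm2 was below in 8 and Mcm5 in 7, and the other 4 counts were the same.

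Of the helicase activators, Gins2, a subunit of the GINS complex, had 21.1 and 10.3 CPM over all cells (-1.04, -1.31 to -0.77), with 49.1 and 22.8 CPM in outer root sheath-like cells. Cdc45, which joins MCM and GINS into the active helicase, had 7.36 and 4.54 CPM (-0.70, -1.13 to -0.28). Unthinned, Gins2 was below control in 11 of 11 classes, with its interval below 0 in 7. Cdc45 was below control in 8 of 11 and above in 3, with its interval below 0 in 3.

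Over all cells, polymerase genes split from the rest of their group. Pola1 and Pold3, subunits of polymerases alpha and delta, had 11.1 and 11.1 CPM and 16.0 and 15.7 CPM, with ratios of 0.01 (-0.29 to 0.31) and -0.02 (-0.27 to 0.23). Pole, the leading-strand polymerase, had 4.595 and 4.28 CPM (-0.10, -0.59 to 0.37). By class the split was less clear. Before thinning, Pola1 was below control in 9 of 11 classes, Pold3 in 8 and Pole in 7, with the interval below 0 in 3, 3 and 0. TMM factors left 8, 7 and 5 classes below control, and DESeq2 factors 7, 6 and 5. In cluster 0 Pola1 had 40.4 and 21.6 CPM, and Pold3 26.9 and 32.9 CPM. Prim1, the primase that lays down the RNA primer, had 22.6 and 13.9 CPM (-0.71, -0.95 to -0.47). Rpa2, which coats single-stranded DNA, had 24.0 and 14.8 CPM (-0.70, -0.94 to -0.47), and Rfc2 of the clamp loader 38.0 and 25.8 CPM (-0.56, -0.74 to -0.38). For the lagging strand, the flap nuclease Fen1 had 20.9 and 15.2 CPM (-0.46) and the ligase Lig1 28.2 and 21.8 CPM (-0.38).

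Pcna, the sliding clamp (chromosome 2, 132249162 to 132253314, minus strand, GRCm38), went the other way from most of the list. Over all cells it had 56.3 CPM (53.0 to 59.8) in control and 77.2 CPM (72.8 to 81.7) in mutant cells, a log2 ratio of 0.46 (0.34 to 0.58). It was the higher in the mutant library in 11 of 11 classes, both after thinning and in unthinned sums, where 9 of 11 intervals lay above 0 and the class ratios ran from 0.14 to 0.90. The higher side held in 11 of 11 with TMM or DESeq2 factors too. In cluster 0 it had 74.7 and 127 CPM (0.77, 0.46 to 1.08), and among T cell or NK cell-like cells 94.4 and 137 CPM (0.54, 0.29 to 0.79). In hair matrix-like cells it passed the size rule, with 39.0 and 91.5 CPM (1.23, 0.59 to 1.91), but in only 1 of 5 random thinnings. Unthinned, it had 246 and 393 UMIs there, 42.9 and 73.9 CPM (0.78, 0.55 to 1.02). Pclaf, the PCNA-associated factor, did not follow it: Pclaf was below control in 11 of 11 classes, unthinned, with 10 of 11 intervals below 0.

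**Figure D3:**
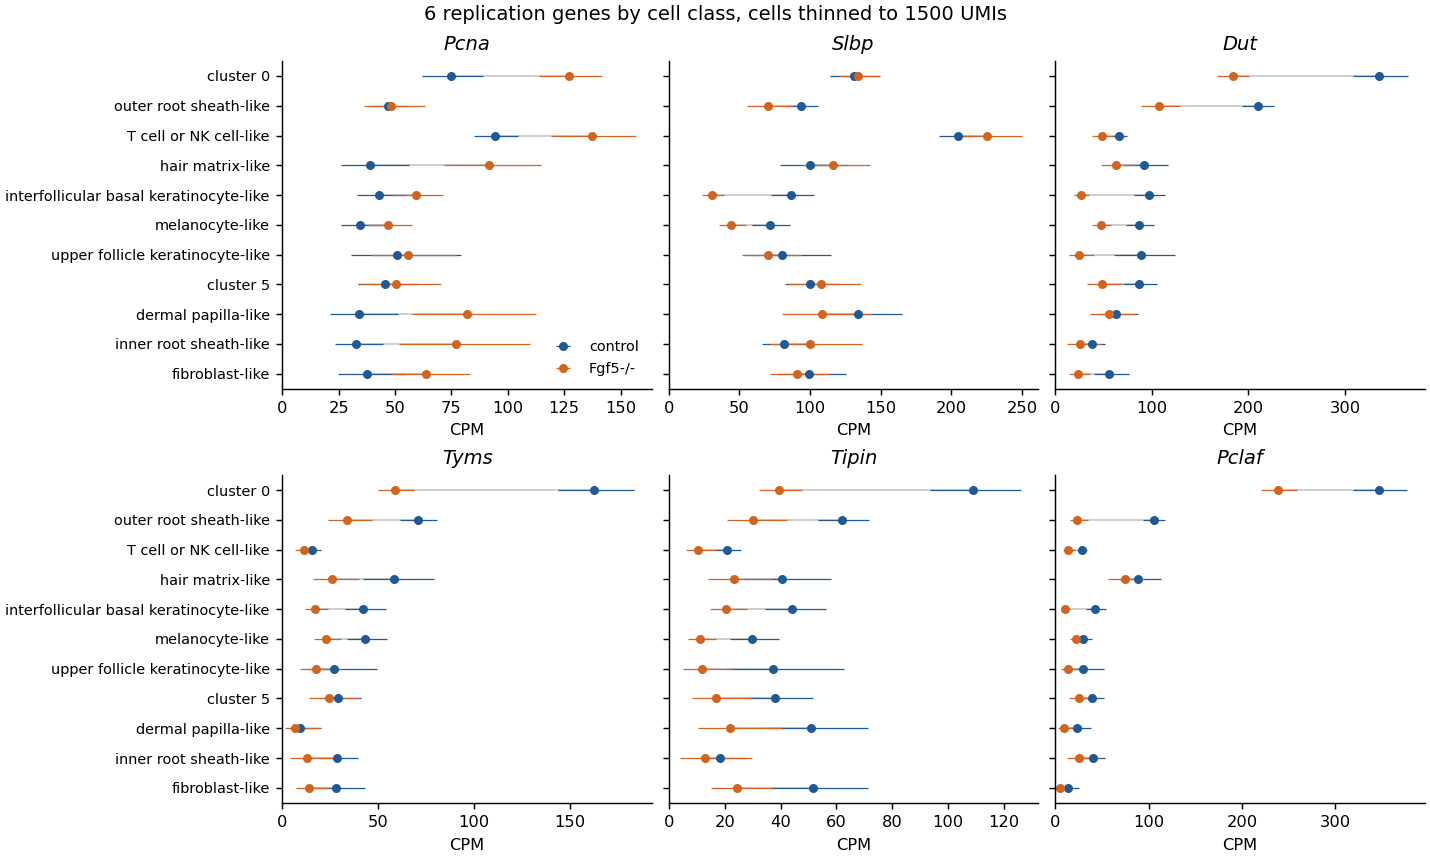
Level (CPM) of Pcna, Slbp, Dut, Tyms, Tipin and Pclaf in 11 cell classes, for 1 control and 1 Fgf5-/- library thinned to 1500 UMIs per cell, with 95% counting intervals. Pcna lies to the right in the mutant library in each class, and Dut, Tyms, Tipin and Pclaf lie to the left in each class.

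A size rule picked out single genes: a ratio of at least 2-fold, with the nearer bound past 1.5-fold and 50 CPM in the higher library. Of 363 pairs of a gene and a class, 58 reached 50 CPM, 7 of these were called lower and 1 higher. Over all cells 0 of 6 genes at that level were called, where 5.69% of all genes were. Counts of 10 of the 33 members are less certain, because the last 400 bases of their transcripts share a run of 60 bases with another annotated gene: Tyms, Mcm4, Mcm7, Rrm2, Rpa2, Pold3, Uhrf1 and Gmnn with pseudogenes or unnamed gene models, and Slbp and Mcm5 with several genes. For 3 of these 10 members, a gene that shares the run is itself among the features of the matrices. Cdt1 overlaps the gene model Gm20388 on the same strand. Pcna, Pclaf, Dut, Tipin and Rrm1 share no such run. The call depends on the draw, so the number of 5 random thinnings that gave it is stated for each member called in a class. Calls in subsets of a class and in other lists, given further below, rest on 1 thinning.

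In cluster 0, Tyms fell from 163 to 58.7 CPM (-1.47, -1.77 to -1.18; called in 3 of 5 thinnings) and Tipin from 109 to 39.4 CPM (-1.47, -1.83 to -1.11; 5 of 5). These were 2 of 21 members tested there, where 2.05% of all genes were called lower. Tipin (chromosome 9, 64281581 to 64305424, plus strand) steadies the replication fork with its partner Timeless. Its unthinned sums in cluster 0 were 1142 and 875 UMIs, 103 and 47.4 CPM. Beside these calls, 19 of the 21 members tested had ratios below 0, with a median over the 21 of -0.50 where that of all genes tested was 0.0025. Dut had 335 and 184 CPM (-0.87), Pclaf 347 and 239 CPM (-0.54) and Rrm2 125 and 84.6 CPM (-0.57), all short of 2-fold.

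In interfollicular basal keratinocyte-like cells, Dut (chromosome 2, 125247190 to 125258608, plus strand) fell from 97.03 to 26.3 CPM (-1.88, -2.37 to -1.42; 5 of 5 thinnings). Slbp (chromosome 5, 33634952 to 33652574, minus strand), which binds and matures histone mRNA, fell from 86.5 to 30.4 CPM (-1.51, -1.98 to -1.05; 5 of 5). These were 2 of 3 members tested, where 12.9% of all genes were called lower, the largest such share of the classes. The third, Pcna, had 42.9 and 59.2 CPM. Below the 50 CPM line, Pclaf had 42.9 and 10.3 CPM (-2.06) and Tyms 42.2 and 17.0 CPM (-1.31).

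In outer root sheath-like cells, Pclaf (chromosome 9, 65890237 to 65903266, plus strand) fell from 105 to 23.7 CPM (-2.15, -2.79 to -1.57; 5 of 5 thinnings), with 1740 and 212 unthinned UMIs, 119 and 48.7 CPM (-1.29). It was 1 of 7 members tested, where 1.63% of all genes were called lower, and all 7 had intervals below 0. Dut there had 209.7 and 108 CPM (-0.96), and Slbp 93.8 and 70.2 CPM (-0.42). In upper follicle keratinocyte-like cells Dut fell from 88.4 to 24.9 CPM (-1.83, -2.76 to -0.94; 3 of 5 thinnings), 1 of 3 tested, where 4.68% of all genes were called lower.

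Among T cell or NK cell-like cells, Rrm1 (chromosome 7, 102441695 to 102469771, plus strand) fell from 113 to 40.0 CPM (-1.49, -1.91 to -1.11; 5 of 5 thinnings), 1 of 4 tested, where 6.36% of all genes were called lower. Unthinned, it had 956 and 96 UMIs, 112 and 35.6 CPM (-1.66). The cells of this class came mostly from different clusters in the 2 libraries, and Rrm1 was not compared within clusters. Slbp, the other abundant member in these cells, had 205 and 225 CPM (0.14, -0.05 to 0.32). Pcna in hair matrix-like cells was the 1 member called higher, of 5 tested, where 1.41% of all genes were called higher. 
No member was called in the remaining 5 classes, and their 4 most abundant members are given instead. In cluster 5, where 2.36% of all genes were called in either direction, Slbp had 99.8 and 108 CPM, Dut 86.2 and 48.7 CPM, Pcna 45.4 and 50.2 CPM and Pclaf 39.0 and 25.9 CPM. Dermal papilla-like cells, the signalling centre of the follicle, had 134 and 108 CPM of Slbp, 63.1 and 55.2 CPM of Dut, 33.9 and 81.7 CPM of Pcna and 50.8 and 22.1 CPM of Tipin, where 8.47% of all genes were called. Fibroblast-like cells had 99.2 and 90.6 CPM of Slbp, 37.7 and 63.9 CPM of Pcna, 55.9 and 23.2 CPM of Dut and 51.7 and 24.4 CPM of Tipin, where 4.9% were called. In these 3 classes the mutant value was the higher for Pcna and the lower for Dut. Inner root sheath-like cells had 98 and 39 UMIs of Slbp (0.29, -0.28 to 0.84), 32.5 and 76.9 CPM of Pcna, 40.0 and 25.6 CPM of Pclaf and 38.3 and 25.6 CPM of Dut, where 2.51% were called. Melanocyte-like cells had 87.04 and 46.9 CPM of Dut, 71.6 and 44.2 CPM of Slbp, 34.6 and 46.9 CPM of Pcna and 43.2 and 22.6 CPM of Tyms, where 4.2% were called.

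In unthinned sums Dut, Tyms and Tipin were below control in 11 of 11 classes with every interval below 0, with class medians of -0.88, -0.999 and -1.25. Pclaf, Rfc2, Rpa2, Prim1, Gins2 and Gmnn were also below control in 11 of 11 classes. With TMM or DESeq2 factors Rpa2 was below control in 10 of 11, Prim1 in 11 and 10, and the other 7 of these 9 genes still in 11. Ung had 22.6 and 7.45 CPM over all cells (-1.60, -1.91 to -1.30), the lowest ratio of the 33 genes, though it stayed under 50 CPM and so was not tested. The repair genes did not share this pattern. Blm, a helicase that unwinds faulty forks, had 9.14 and 11.3 CPM over all cells (0.30, -0.01 to 0.61), and the exonuclease Exo1 3.34 and 3.43 CPM (0.04, -0.51 to 0.59). Clspn, which relays the checkpoint signal at the fork, had 14.5 and 11.9 CPM (-0.29, -0.57 to -0.02). Of the chromatin genes, Chaf1b, which loads histones behind the fork, had 12.1 and 8.42 CPM (-0.52), and Uhrf1, which helps to copy DNA methylation, 20.99 and 16.5 CPM (-0.35).

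The promoter motifs were set beside the ratios as a description. Over all cells, the 12 genes with an E2F-type match had a median log2 ratio of -0.32 (-0.61 to 0.01, 11 of 12 below 0) and the 14 without one -0.61 (-1.60 to 0.46, 12 of 14 below 0), with the lowest and highest gene in brackets. With and without a CCAAT box the medians were -0.41 (17 genes) and -0.52 (9 genes).

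The members followed each other from class to class in different degrees. Across 22 points, 11 classes in 2 libraries, the log2 level of each member was set against the sum of the other 32, a description in which points of a library share its depth and its mix of cells. Pearson's r was highest for Pclaf (0.91), Mcm3 (0.90), Rrm2 (0.90) and Dut (0.90), and lowest for Pcna (0.22) and Slbp (0.33). Outside the lists, genes most like the set by the same measure included Stmn1 (r = 0.90), Cenpq (0.89), Syce2 (0.88) and Dctpp1 (0.88). Stmn1 encodes a microtubule regulator.

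Other lists of the cell cycle were set beside the members (plot of list ratios by class). A list of 43 other replication genes, such as Orc6, Dbf4, Dtymk, Pole3, Pole4 and Rnaseh2c, had 1068 and 805 CPM over all cells (-0.41, -0.44 to -0.38) and lay below 0 in all 11 classes. Over all cells 5 of these genes reached 50 CPM and 0 were called. In cluster 0 only the thymidine kinase Tk1 of 19 tested was called, lower, where 2.05% of all genes were called lower. The 25 mitosis genes had 1030 and 757 CPM over all cells (-0.44, -0.48 to -0.41), with 5 tested and 0 called.

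Mitosis genes and replication genes parted in some classes. In interfollicular basal keratinocyte-like cells the mitosis list fell from 1364 to 273 CPM (-2.32, -2.46 to -2.18). All 9 of 9 genes tested were called lower, where 12.9% of all genes were. Among them were Mki67 (74.6 to 21.1 CPM), Top2a (91.7 to 25.2 CPM) and Ube2c (114 to 17.0 CPM). In outer root sheath-like cells the list fell from 1039 to 439 CPM (-1.24, -1.39 to -1.10), with 6 of 7 called lower, where 1.63% of all genes were. Among T cell or NK cell-like cells, mostly of different clusters in the 2 libraries, the mitosis list stood at 1080 and 1081 CPM (0.0021, -0.08 to 0.08). It stood at 0.10 and 0.12 with TMM and DESeq2 factors. The replication genes stood at -0.35 there, or -0.15 with clusters 2, 9 and 15 weighted equally. Of the 2 mitosis genes tested there, Cenpa alone held 597 and 815 CPM of these sums (0.45, 0.35 to 0.55) and was not called. Cks2, a partner of cyclin-dependent kinases, was called lower (172 to 51.2 CPM), where 6.36% of all genes were called lower. The level sum therefore does not stand for each mitosis gene in these cells. In hair matrix-like cells the mitosis list had 1375 and 1190 CPM (-0.21, -0.34 to -0.08). There 1 of 10, Prc1, was called higher, where 1.41% of all genes were called higher.

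**Figure D4:**
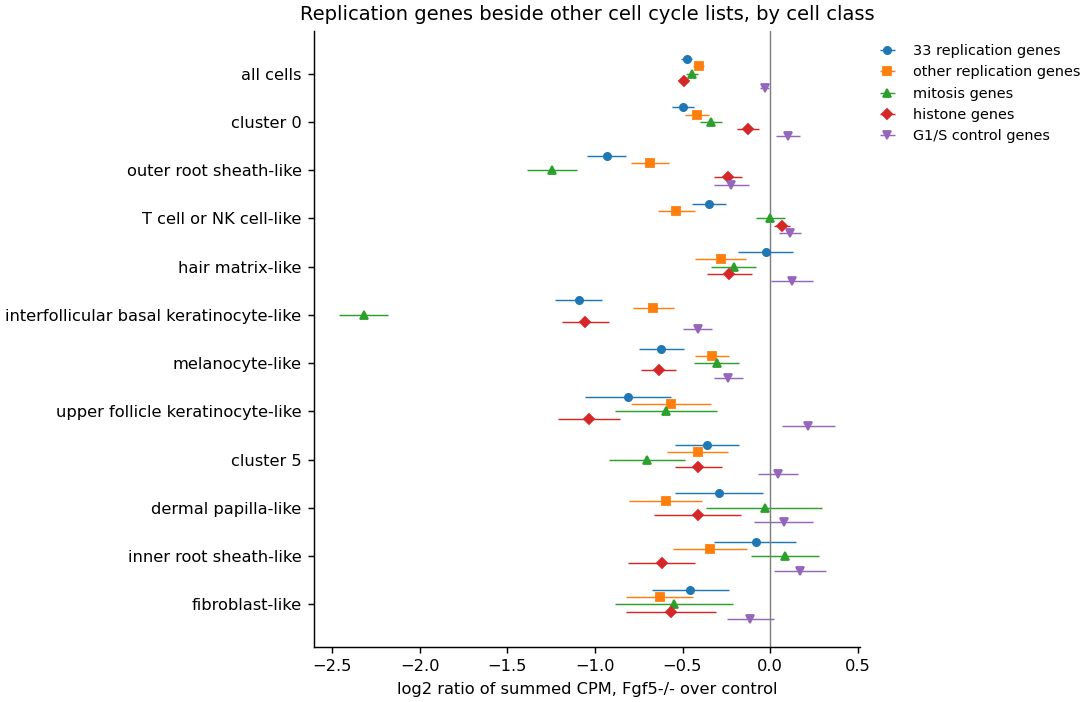
Log2 ratio of summed level, Fgf5-/- over control, for the 33 replication genes and 4 other cell cycle lists in 11 classes and all cells, with 95% counting intervals. The mitosis list lies farthest left in interfollicular basal keratinocyte-like cells, and the G1/S control list stays nearest to 0 over all cells.

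The 67 replication-dependent histone genes, listed by symbol alone, had 1797 and 1277 CPM over all cells (-0.49, -0.52 to -0.47). Of 6 tested, 1, Hist1h1c, was called lower (386 to 187 CPM), where 2.88% of all genes were called lower. Hist1h2bc and Hist1h1c held much of both sums, with 749 and 493 CPM for Hist1h2bc (-0.60). Hist1h1b was the 1 tested gene above 0 (72.1 and 95.3 CPM). Whether this histone RNA came from cells in S phase was not tested. Histone UMIs were abundant among T cell or NK cell-like cells, where Hist1h2bc alone had 2041 and 2757 CPM. The 23 G1/S control genes, cyclins, kinases and their inhibitors, stood at 1474 and 1443 CPM over all cells (-0.03, -0.055 to -0.0045; 0.06 and 0.07 with TMM and DESeq2 factors), with 0 of 9 called. Cdkn1a, the p21 inhibitor that binds PCNA, had 378 and 393 CPM over all cells (0.05), 185 and 271 CPM in cluster 0 (0.55), and in dermal papilla-like cells it rose from 112 to 278 CPM (1.31), where 4.57% of all genes were called higher. Ccnd2, a D-type cyclin, had 264 and 376 CPM over all cells (0.51) and rose from 415 to 881 CPM (1.09) among T cell or NK cell-like cells, where 5.08% were called higher.

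The set was also measured among cells with UMIs of mitosis or histone genes. Cells that held at least 2 UMIs of mitosis genes or of histone genes were chosen, which does not use the members. They were 7401 of 12768 control cells (58.0%) and 4521 of 10290 mutant cells (43.9%). Mitosis genes alone picked 26.9% and 22.5% of cells, with a ratio of -0.13 for the set. In the T cell or NK cell-like class 77.0% and 78.5% of cells were chosen by either list. How many of the chosen cells were dividing was not tested. Within the chosen cells the set had 1277 and 1156 CPM (-0.14, -0.18 to -0.10), and in the other cells 749 and 447 CPM (-0.74, -0.80 to -0.69). Cluster 0, the compared class with the highest level, gave 852 of the 7401 chosen control cells and 1286 of the 4521 chosen mutant cells. The pooled ratios thus mix classes in unlike shares and do not stand for a ratio within each class. With at least 3 such UMIs the ratio in the chosen cells was -0.029. Over all chosen cells 0 members were called, where 4.44% of all genes were called in either direction. Whether fewer cells were in S phase or each held less of this RNA cannot be told apart.

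Within the chosen cells the classes again differed. Outer root sheath-like cells had 1534 and 786 CPM (-0.96, -1.12 to -0.82) and interfollicular basal keratinocyte-like cells 1036 and 575 CPM (-0.85, -1.09 to -0.61), gaps close to those of the whole class. Cluster 0 had 2660 and 2083 CPM (-0.35, -0.42 to -0.29), and hair matrix-like cells 1121 and 1221 CPM (0.12, -0.05 to 0.30). In outer root sheath-like cells chosen by mitosis genes alone, 409 control and 74 mutant cells, the levels were 2554 and 1658 CPM (-0.62, -0.85 to -0.40). Tyms and Tipin in cluster 0 fell among the chosen cells too, from 176 to 66.4 CPM (-1.41) and from 109 to 44.1 CPM (-1.30), where 4.32% of all genes were called in either direction. Pclaf fell in outer root sheath-like cells, from 154 to 33.6 CPM (-2.20; 2.72% of all genes called), and Rrm1 in the T cell or NK cell-like class, from 125 to 39.3 CPM (-1.66; 11.3% called). Pcna rose in hair matrix-like cells, from 35.8 to 118 CPM (1.73, 0.90 to 2.63; 2.92% of all genes called), on 16 and 54 UMIs. It also rose in inner root sheath-like cells, from 35.9 to 113 CPM (1.66, 0.62 to 2.67; 2.46% called), on 21 and 16 UMIs. The values of these chosen cells come from 1 thinning and were not drawn again. In the whole hair matrix-like class most thinnings did not give the Pcna call, and its unthinned ratio, given above, was smaller.

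Cells can also be sorted by whether they hold replication genes, mitosis genes or both. Over all cells, 9.19% of control and 5.32% of mutant cells had at least 3 UMIs of the set and under 2 of the mitosis list, and 9.81% and 8.41% had both. In outer root sheath-like cells the first kind made up 15.04% and 7.25% and the second 10.3% and 3.28%. In cluster 0 they made up 19.3% and 13.1%, and 38.0% and 32.1%. In hair matrix-like cells, 4.80% and 3.90% had replication genes alone and 12.5% and 13.2% had both.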

How the data were processed

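Single-cell RNA of dorsal skin was deposited as 1 matrix of raw UMI counts per group. Per the file headers, counts were written by Cell Ranger, and the submitters' processing notes name the GRCm38 (mm10) build, Cell Ranger 3.0.2 and Seurat in versions 3.0.0 and 3.1.0. The deposited counts were used as they are: 16973 control barcodes with 140880809 UMIs and 13411 mutant barcodes with 97817173 UMIs, each barcode with at least 500.

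Kept barcodes had 500 genes or more and no more than 15% of their UMIs from mitochondrial genes. Scrublet (scanpy 1.11.5, expected rate 0.8% per 1000 cells) removed 366 control cells (2.59%) and 453 mutant cells (3.95%), fewer than the rates of 11.3% and 9.16% it was given, so doublets remain. Both libraries were clustered together without integration: 2000 variable genes without the replication, mitosis, G1/S control and histone lists (197 genes left out), 30 components (scikit-learn 1.9.0), 15 neighbours, Leiden resolution 1 (leidenalg 0.10.2, igraph 0.11.9), 31 clusters. A cluster was named "X-like" if the best of 27 marker sets scored at least 1 and led by 0.3 with at least 3 detected markers and no lead of another set among its top 10 genes. The authors' annotation was not used here, so names are rebuilt. Classes with 200 or more thinned cells in each library were compared, 11 in all.

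Cells were thinned once to 1500 UMIs and sums per class and library scaled to CPM. Ratios carry exact conditional intervals for 2 Poisson counts, levels exact Poisson and shares Clopper-Pearson intervals (scipy 1.17.1, numpy 2.4.6). The size rule was tested on simulated data. Named are all 33 members, in each class those past the size rule or else the 4 with the highest level, up to 6 genes of each other list by UMIs (Tk1 was chosen after its values were seen), and the 5 genes most like the set by Pearson's r of log2(CPM + 10) among those with 20 CPM in some point (1 of these 5 is not reported here). TMM factors came from edgeR 4.0.16 and size factors from DESeq2 1.42.0 (R 4.3.3), used for scaling only. Gene positions are those of GENCODE vM21. The members and lists were chosen with earlier results of these data known.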

Additional observations from a re-analysis of the deposited data

How the results depend on the processing

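No paired analysis was possible because all samples of a group were pooled in 1 matrix, and for the same reason no replicate could be left out. The log2 ratio of the set over all cells was -0.48 as reported. It was -0.52 with cells thinned to 3000 UMIs, -0.28 in unthinned sums, -0.39 with TMM factors, -0.37 with DESeq2 size factors, -0.54 with the control class shares given to both libraries, and -0.55 without Pcna, Dut and Slbp. The log2 ratio of shares of cells, -0.47 as reported, was -0.63 with cells thinned to 1000 UMIs and -0.71 at a minimum of 5 UMIs. Among cells with mitosis or histone UMIs, pooled over classes as captured, the ratio, -0.14 as reported, was -0.029 at a minimum of 3 UMIs. The count of pairs called lower, 7 as reported, was 11 at 3000 UMIs, 14 unthinned, 4 at a minimum of 100 CPM, 30 with no minimum, and 14 and 11 in draws 2 and 3 of 4 further thinnings. The count called higher, 1 as reported, was 2 with doublets kept, with each library clustered on its own, with the cell cycle lists kept in the clustering and with no minimum. It was 0 at 1000 or 3000 UMIs, unthinned, at resolution 0.5, at 100 CPM, without Pcna and in 3 of the 4 further thinnings. The level in dermal papilla-like cells turned to 0.062 in draw 3 of these, from -0.29. Leaving out members, the further thinnings and the weighting of clusters were chosen after seeing the data. The number of classes with an interval below 0 was 6 of 8 at resolution 0.5 and 6 of 9 at resolution 2, and otherwise 8 or more of 9 to 11. With UMIs of single genes often under 100 in a class, folds under 2 were not readable there, and with 1 library per group the spread between mice is unknown. The cause of these shifts was not tested.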

Other observations

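Classes with too few cells for the comparisons held replication genes as well. Erythroid-like cells, the red cell line, had 1047 CPM in 184 control cells and 617 CPM in 81 mutant cells (log2 ratio -0.76, -1.15 to -0.39). Endothelial-like cells had 733 and 561 CPM (-0.39, -0.79 to 0.0038), and interfollicular suprabasal keratinocyte-like cells 344 and 208 CPM (-0.73, -1.10 to -0.35). Mast cell-like cells had 1091 CPM on 54 UMIs and 267 CPM on 18 UMIs. Hair cortex and cuticle-like cells had the lowest level of the named classes, 159 and 164 CPM (0.04, -0.92 to 0.96). Cluster 26, with 179 control cells and 0 mutant cells, had 801 CPM and carried basal keratinocyte genes such as Krt15 beside T cell genes such as Il2rb.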
